A study of Mus musculus with 2 samples.

Results

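The 10 genes described here are a small set of transcripts that ERK signalling is known to induce and that, in part, switch it off again: the MAP kinase phosphatases *Dusp1*, *Dusp4*, *Dusp5* and *Dusp6*, the sproutys *Spry2* and *Spry4*, and the early genes *Egr1*, *Ier2*, *Ier3* and *Phlda1*. They were chosen by symbol with earlier results of these data known. All 10 were found by gene identifier among the 31053 genes of the count table. A filter on low counts left 12159 genes for testing. It kept 9 of the 10, and *Spry4* was too low to be tested.

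The data are from mouse small intestinal organoids, which are three-dimensional cultures of crypt epithelium grown in Matrigel. Crypts were taken from wild-type C57BL/6J mice, 1 mouse for each of 2 experiments, and the organoids were kept for 3 days in ENR medium (50 ng/ml EGF with Noggin and R-spondin 1) and then for 24 h with no EGF family ligand. They then received NRG1 (neuregulin 1), EREG (epiregulin) or EGF at 100 ng/ml for 24 h before the RNA was taken, so that every group had seen EGF earlier and no group was left without a ligand. Each ligand had 3 libraries in each experiment, 18 in all, and the values are UMI counts from the 3′ ends of transcripts.

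The library totals lay between 1311420 UMIs, for an NRG1 library of experiment 2, and 1891243 UMIs, for an EGF library of experiment 1. With 1 mouse per experiment, mouse and experiment cannot be told apart. The sources do not say that the replicates were separate cultures, so the p-values measure the spread between these libraries, which may be technical. Replicate 2 of every group was in one sequencing pool, and replicates 1 and 3 were in the other. Values are normalised UMI counts, that is, UMI counts scaled by TMM factors to a library of 1634610 UMIs, and a count of 1 UMI is therefore close to 1 on this scale. A gene passed the test at an adjusted p under 0.1 (edgeR's quasi-likelihood test, Benjamini-Hochberg over all 12159 genes). Folds are log2 fold changes ± SE.

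EGF and EREG bind EGFR, and EREG can also bind ERBB4, whereas NRG1 binds ERBB3 and ERBB4, which pair with ERBB2. All of these receptors can activate the cascade from RAS through RAF and MEK to ERK. ERK in turn drives transcription of early genes through serum response factor and its ETS partners, and the products of some of these genes remove the phosphates from ERK or block the receptor, which closes a feedback loop. In the intestinal crypt this pathway supports the division of stem and progenitor cells.

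The markers were those of an epithelial culture. The 8 epithelial markers summed to between 6273 and 11665 CPM (counts scaled to the library total) in the 18 libraries, the 7 fibroblast markers to 1.26 to 8.39 CPM and the 5 endothelial markers to 0 to 2.84 CPM. Markers at 0 in every library were 1 of the 7 fibroblast, 3 of the 5 endothelial and 2 of the 6 immune markers. The immune markers summed to 10.7 to 12.2 CPM in NRG1 libraries of experiment 2, against 2.80 to 4.85 CPM with EREG and 3.79 to 6.51 CPM with EGF, and to 4.05 CPM or less in experiment 1. Their part in the results below was not tested. Stem cell markers were lower with NRG1 than with EGF for 5 of 6, and Paneth cell markers for 6 of 6, beside 5.39% of all tested genes. In bulk organoids, a change in the number of cells of a type and a change in RNA per cell cannot be told apart. The share of *Malat1*, a nuclear RNA, was 0.170 to 0.171% in NRG1 libraries of experiment 2, against 0.0774 to 0.0844% in the EGF libraries, and 0.0244 to 0.0368% against 0.0280 to 0.0404% in experiment 1. The mitochondrial share was 0.565 to 0.578% with NRG1 against 0.596 to 0.604% with EGF in experiment 2, and 0.600 to 0.732% against 0.979 to 1.20% in experiment 1, lower with NRG1 without overlap in both. The part of *Malat1* and of the mitochondrial share in the results was not tested either.

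NRG1 organoids had more transcript of 6 of the 9 tested members than EGF organoids, in a single fit over both experiments: *Dusp1*, *Dusp4*, *Dusp5*, *Egr1*, *Ier3* and *Phlda1*. None was lower. Of all genes tested, 6.04% were higher with NRG1 by the same rule. The members were chosen with earlier results of these data known, so the 6 of 9 beside this share is a description and not a test. The median log2 fold change was 0.63 over the 9 tested members and -0.013 over all 12159 genes. *Dusp6* and *Spry2* lay above zero and *Ier2* close to it, and none of these 3 passed. DESeq2 also called 6 members. Within the sequencing pool of replicates 1 and 3, 5 of the 6 passed and *Egr1* did not (0.58, adjusted p = 0.172). Within the pool of replicate 2, which leaves only 2 residual degrees of freedom, *Ier3* alone passed (1.32, adjusted p = 3.24e-06), and the other 5 lay between 0.31 (*Phlda1*) and 1.26 (*Dusp1*), with adjusted p from 0.138 to 0.529. The plot of levels by library and the plot of differences between ligands show both sides of this result, the single libraries and the fitted contrasts.

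**Figure D1:**
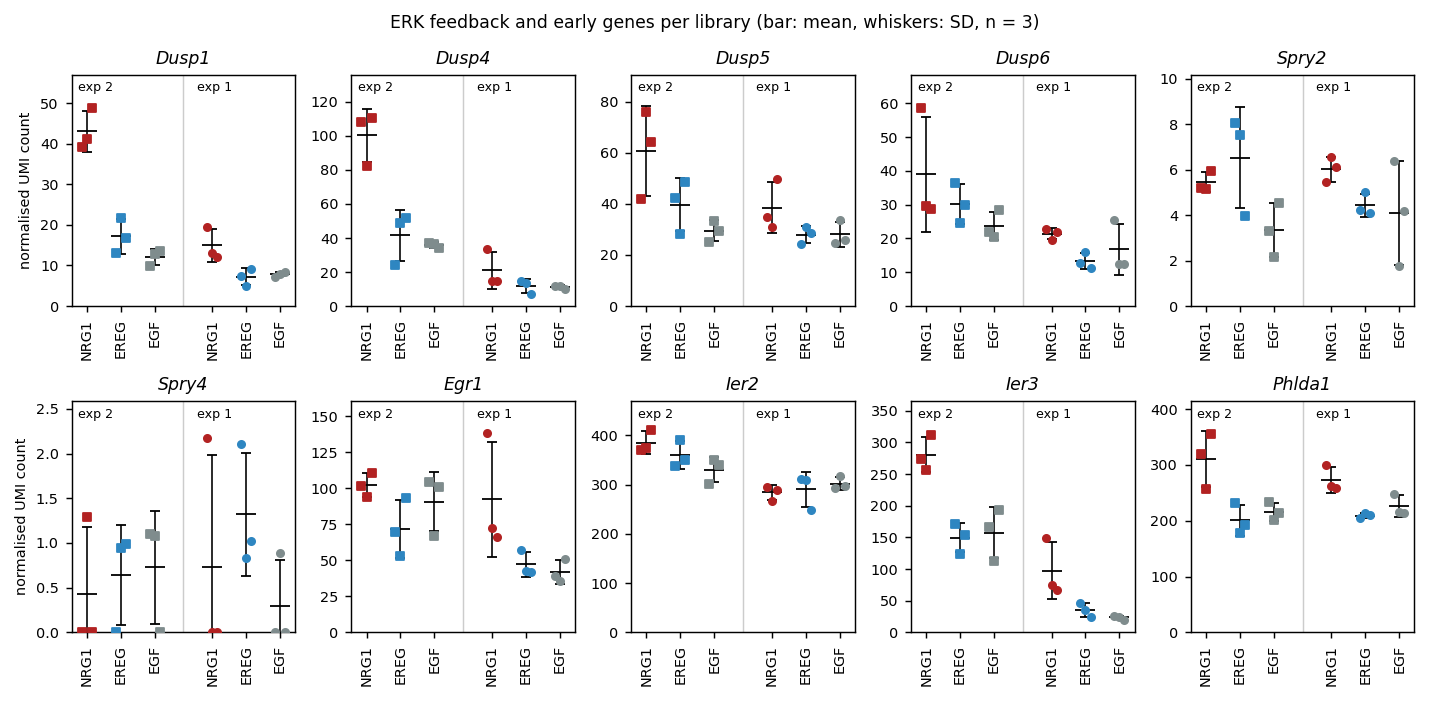
Normalised UMI counts of the 10 genes in each of the 18 libraries, by ligand, with experiment 2 on the left of each panel and experiment 1 on the right. Horizontal bars are means and whiskers are SD of 3 libraries, cut at 0 for *Spry4*. The NRG1 libraries of *Dusp1* sit at 39.1 to 48.8 in experiment 2, above all EREG and EGF libraries, and *Ier2* changes little between ligands.

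*Dusp1* (ENSMUSG00000024190, GRCm38 chromosome 17, 26505590 to 26562128, minus strand) encodes a nuclear phosphatase that acts on p38 and JNK as well as ERK. In experiment 2, *Dusp1* was at 39.1, 41.3 and 48.8 in NRG1 libraries, at 13.1, 21.7 and 16.9 in EREG libraries and at 9.88, 13.0 and 13.6 in EGF libraries. In experiment 1 it was at 19.6, 13.1 and 12.2 with NRG1, at 7.38, 5.02 and 9.19 with EREG and at 7.27, 7.98 and 8.36 with EGF. The NRG1 libraries were above every EREG and EGF library of their own experiment, while EREG and EGF overlapped. Among the 6 groups, NRG1 of experiment 2 was the highest by a wide gap, EREG of experiment 2 and NRG1 of experiment 1 overlapped, and the lowest were EREG and EGF of experiment 1, which overlapped too. *Dusp1* rose by 1.43 ± 0.25 with NRG1 against EGF (adjusted p = 3.38e-05) and by 1.20 ± 0.24 against EREG (adjusted p = 3.39e-04).

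*Dusp4* (ENSMUSG00000031530, chromosome 8, 34807297 to 34819894, plus strand), another nuclear phosphatase of ERK and JNK, had the lowest adjusted p of the 9 tested members in NRG1 against EGF. Its NRG1 libraries of experiment 2 were at 108, 82.5 and 111, the EREG libraries at 24.2, 49.0 and 51.6 and the EGF libraries at 37.3, 36.7 and 34.0. In experiment 1 the levels were 33.7, 14.7 and 14.8 with NRG1, 14.8, 13.4 and 7.15 with EREG and 11.8, 11.5 and 10.0 with EGF. NRG1 lay above EGF in both experiments without overlap, but in experiment 1 the NRG1 and EREG ranges overlapped, and NRG1 replicate 1 stood well above the other NRG1 libraries. *Dusp4* rose by 1.27 ± 0.20 with NRG1 against EGF (adjusted p = 4.39e-06) and by 1.10 ± 0.20 against EREG (adjusted p = 4.95e-05).

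*Dusp5* (ENSMUSG00000034765, chromosome 19, 53529109 to 53542431, plus strand) encodes a nuclear phosphatase with ERK as its main substrate. It was at 41.7, 76.1 and 64.3 in NRG1 libraries of experiment 2, at 42.3, 28.3 and 48.6 with EREG and at 25.3, 33.5 and 29.4 with EGF. In experiment 1 it was at 34.8, 31.1 and 49.7 with NRG1, at 24.2, 31.0 and 28.6 with EREG and at 24.5, 33.7 and 25.9 with EGF. The NRG1 libraries cleared the EGF libraries in experiment 2 and overlapped with them in experiment 1. *Dusp5* rose by 0.74 ± 0.18 with NRG1 against EGF (adjusted p = 0.00353). Against EREG it rose by 0.53 ± 0.18 (adjusted p = 0.0477), a call that was lost without any of 3 single libraries (EREG replicate 2 of experiment 2, NRG1 replicate 2 of experiment 2 or EREG replicate 3 of experiment 1, adjusted p = 0.183, 0.213 and 0.108).

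*Dusp6* (ENSMUSG00000019960, chromosome 10, 99263231 to 99267489, plus strand) encodes the cytoplasmic ERK phosphatase that is widely used as a readout of the pathway. Its NRG1 libraries were at 58.7, 29.7 and 28.6 in experiment 2, its EREG libraries at 36.3, 24.5 and 29.8 and its EGF libraries at 21.96, 20.5 and 28.3. In experiment 1, *Dusp6* was at 22.9, 19.6 and 21.8 with NRG1, at 12.6, 15.9 and 11.2 with EREG and at 25.5, 12.4 and 12.5 with EGF. One library stood apart in each direction: NRG1 replicate 1 of experiment 2, and EGF replicate 1 of experiment 1, which was above the NRG1 libraries of that experiment. The difference of 0.54 ± 0.22 between NRG1 and EGF did not pass (95% interval 0.12 to 0.97, adjusted p = 0.111). Leaving out EGF replicate 1 of experiment 1 gave 0.70, which passed (adjusted p = 0.0507), as did leaving out EREG replicate 1 of experiment 1 (0.55, adjusted p = 0.0932) or NRG1 replicate 3 of experiment 2 (0.62, adjusted p = 0.0917). Leaving out NRG1 replicate 1 of experiment 2 gave 0.43 (adjusted p = 0.298).

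For *Dusp1* and *Dusp5* the promoters held motifs of factors that early genes are known for, and these are shown because no other searched member had a match. The RefSeq promoter table (GRCm38.p6, 250 bases before to 50 after the start) had 5 of the 10 genes, *Dusp1*, *Dusp5*, *Dusp6*, *Spry2* and *Ier3*. Both strands were searched for the CArG box of serum response factor (by its usual consensus), the cyclic AMP response element TGACGTCA, the AP-1 site TGANTCA, the ETS site CCGGAAGT and the EGR site GCGNGGGCG. *Dusp1* had 1 cyclic AMP response element, at 17:26508597-26508626 on the minus strand as a window of 30 bases. *Dusp5* had 2 CArG boxes that adjoin each other, in the window 19:53529058-53529087 on the plus strand, and capitals mark the motifs.
Dusp1: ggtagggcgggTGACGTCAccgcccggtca
Dusp5: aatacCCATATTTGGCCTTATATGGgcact
The cyclic AMP response element was present in the promoters of 2.03% of 27025 genes, and the CArG box in 1.81%. The AP-1 site (8.97% of genes), the ETS site (4.31%) and the EGR site (6.27%) were found in none of the 5 promoters. The promoter of *Ier3*, which also rose with NRG1, held none of the motifs searched, and neither did those of *Dusp6* and *Spry2*. These matches describe the letters in a fixed window and were not tested as binding sites.

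The sproutys, which sit at the membrane and inhibit signalling from receptor tyrosine kinases to RAS and ERK, were at the limit of detection. *Spry2* (ENSMUSG00000022114, chromosome 14, 105891947 to 105896819, minus strand) had 90 UMIs in all and at most 8 in a library. In experiment 2, *Spry2* was at 5.22, 5.16 and 5.95 with NRG1, at 8.06, 7.53 and 3.97 with EREG and at 3.29, 2.16 and 4.53 with EGF. In experiment 1 it was at 5.44, 6.54 and 6.10 with NRG1, at 4.21, 5.02 and 4.08 with EREG and at 6.36, 1.77 and 4.18 with EGF. No ligand separated from the others in both experiments. The difference of 0.63 ± 0.44 between NRG1 and EGF did not pass (adjusted p = 0.450), and its 95% interval from -0.25 to 1.51 spans a small fall and a rise as large as that of *Dusp1*.

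*Spry4* (ENSMUSG00000024427, chromosome 18, 38586247 to 38601415, minus strand) had 12 UMIs in all, with at most 2 in a library and none in 8 of the 18. Over the 3 libraries of a group, the sums in experiment 2 were 1 UMI with NRG1, 2 with EREG and 2 with EGF, and in experiment 1 they were 2, 4 and 1. A difference between ligands was not detectable at this depth.

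Of the early genes, *Egr1* (ENSMUSG00000038418, chromosome 18, 34859823 to 34864984, plus strand), a zinc finger transcription factor, was at 102, 94.1 and 111 in NRG1 libraries of experiment 2, at 69.5, 52.7 and 93.2 with EREG and at 104, 66.9 and 101 with EGF. In experiment 1, *Egr1* was at 138, 72.7 and 66.2 with NRG1, at 56.9, 42.7 and 41.9 with EREG and at 39.1, 35.5 and 51.0 with EGF. NRG1 was above EREG in both experiments without overlap, but above EGF only in experiment 1, since EGF libraries of experiment 2 reached the NRG1 level. Over both experiments *Egr1* rose by 0.62 ± 0.16 with NRG1 against EGF (adjusted p = 0.00687) and by 0.74 ± 0.16 against EREG (adjusted p = 0.00133). Without NRG1 replicate 1 of experiment 1, the highest library of the 18, the rise over EGF was 0.43 (adjusted p = 0.0618).

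*Ier3* (ENSMUSG00000003541, chromosome 17, 35821684 to 35822923, plus strand) encodes a small stress-inducible protein that is a substrate of ERK and affects cell survival. It was at 274, 257 and 312 in NRG1 libraries of experiment 2, at 170, 124 and 154 with EREG and at 166, 113 and 193 with EGF. In experiment 1 the levels were 149, 75.2 and 67.1 with NRG1, 46.4, 36.0 and 24.5 with EREG and 25.5, 24.8 and 20.1 with EGF. NRG1 exceeded both other ligands without overlap in both experiments, and the 3 groups of experiment 2 had means of 281, 149 and 157, above the means of 97.1, 35.6 and 23.5 in experiment 1. In the order of the 6 groups, EREG and EGF of experiment 2 overlapped, and the lowest library of this pair (113) was below NRG1 replicate 1 of experiment 1. *Ier3* rose by 1.25 ± 0.21 with NRG1 against EGF (adjusted p = 8.66e-04) and by 1.13 ± 0.21 against EREG (adjusted p = 0.00214).

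*Phlda1* (ENSMUSG00000020205, chromosome 10, 111506286 to 111508645, plus strand) encodes a protein with a pleckstrin homology-like domain that growth factors induce. Its NRG1 libraries of experiment 2 were at 320, 257 and 356, the EREG libraries at 232, 178 and 191 and the EGF libraries at 233, 202 and 213. In experiment 1 *Phlda1* was at 299, 261 and 258 with NRG1, at 204, 213 and 209 with EREG and at 248, 216 and 213 with EGF. The change was small but the groups were tight, and NRG1 did not overlap with either ligand in either experiment. *Phlda1* rose by 0.40 ± 0.09 with NRG1 against EGF (adjusted p = 0.00141) and by 0.50 ± 0.09 against EREG (adjusted p = 3.68e-05).

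*Ier2* (ENSMUSG00000053560, chromosome 8, 84661331 to 84662852, minus strand), an immediate early gene for a nuclear protein, was the best counted member with 5799 UMIs. It was at 370, 374 and 412 in NRG1 libraries of experiment 2, at 339, 392 and 350 with EREG and at 301, 350 and 341 with EGF. In experiment 1 the *Ier2* levels were 296, 267 and 289 with NRG1, 312, 310 and 249 with EREG and 293, 317 and 297 with EGF. NRG1 was above EGF in experiment 2 and within or below it in experiment 1. Over both, the difference was 0.066 ± 0.085 (adjusted p = 0.726), with a 95% interval from -0.10 to 0.23 that leaves out a change the size of those of *Dusp1*, *Dusp4* or *Ier3*.

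Counting libraries alone, 4 members (*Dusp1*, *Dusp4*, *Ier3* and *Phlda1*) had every NRG1 library above every EGF library in both experiments, and so did 2.86% of all tested genes. Against EREG, 4 members did so (*Dusp1*, *Egr1*, *Ier3* and *Phlda1*), beside 2.43% of all tested genes. In the GENCODE M21 annotation, *Dusp1* overlaps *Ergic1* over 640 bases and *Gm8225* (21 UMIs) over 956 bases on the other strand. On its own strand *Dusp1* overlaps *AC122252.1* over 1853 bases and *AC122252.4* over 227 bases, and neither is in the count table. *Dusp5* overlaps an antisense gene over 547 bases and *Phlda1* overlaps *Gm28592* over 1088 bases. These overlaps are between whole gene spans, introns included. The sources used here do not give the strand setting of the counting, so reads from within these overlaps cannot be assigned. For overlaps on the same strand, no strand setting would separate the reads. However, *AC122252.1* is annotated as sense intronic, a gene type within introns, so it would not add to a count over exons. *Gm28592* had 6 UMIs in all, against 4258 for *Phlda1*, whereas *Ergic1* had 2087 UMIs against 286 for *Dusp1*. None of the 61-base windows in the last 500 bases of the members' transcripts occurred, in either orientation, in an annotated transcript of another gene. Any stretch shared with such a transcript there, also for *Dusp1*, is therefore shorter than 61 bases. Whether counted reads lay outside these last 500 bases was not tested.

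**Figure D2:**
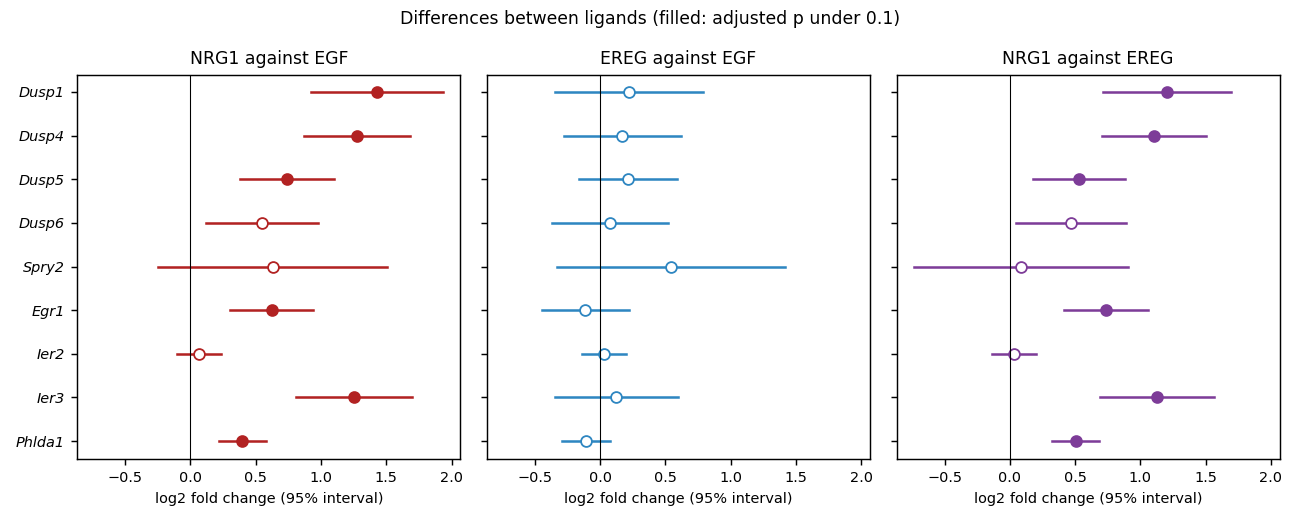
Log2 fold changes of the 9 tested members between ligands, with 95% intervals, from one fit over 18 libraries. Filled points passed at an adjusted p under 0.1. In NRG1 against EGF and NRG1 against EREG the same 6 genes are filled, from *Phlda1* at 0.40 and 0.50 to *Dusp1* at 1.43 and 1.20, and in EREG against EGF none is.

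EREG, which shares EGFR with EGF, gave no detected change in these genes. In EREG against EGF, 0 of the 9 tested members passed, beside 0.00822% of all genes (1 gene). None of the 9 had an unadjusted p under 0.05 in edgeR, beside 664 of all 12159 genes. DESeq2, which gave an adjusted p for 1 of the 9 (*Ier2*), called none. The differences lay between -0.11 (*Egr1*, 95% interval -0.45 to 0.22, and *Phlda1*, -0.29 to 0.07) and 0.54 (*Spry2*, -0.33 to 1.42). For *Dusp1* the difference was 0.22 (-0.35 to 0.79), for *Dusp4* 0.17 (-0.28 to 0.62) and for *Ier3* 0.13 (-0.34 to 0.59). The intervals of *Dusp1*, *Dusp4* and *Ier3* each end below the NRG1 fold of the same gene, but they do not show that EREG and EGF act alike. The narrowest interval was that of *Ier2* (0.031, -0.14 to 0.20).

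Within the experiments EREG gave the same count. In experiment 2, 0 of the 9 passed in EREG against EGF, beside 1% of all genes. At an unadjusted p under 0.05 in edgeR there were 0 of the 9, beside 1201 of all 12159 genes. DESeq2 called 0 of the 2 for which it gave an adjusted p. In experiment 1, 0 of the 9 passed, as did 0 of all 12159 genes, and DESeq2 called 0 of 9. In edgeR 1 member, *Ier3*, had an unadjusted p under 0.05 there, beside 516 of all 12159 genes. Its EREG level was above EGF by 0.61 ± 0.26 (adjusted p = 1). The EREG and EGF libraries of *Ier3* overlapped in experiment 1, at 24.5 to 46.4 with EREG and 20.1 to 25.5 with EGF.

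NRG1 against EREG gave the same 6 members as NRG1 against EGF, all higher with NRG1, beside 6.55% of all genes. The comparisons share their NRG1 libraries. *Dusp6* differed by 0.47 ± 0.21 (adjusted p = 0.188), *Spry2* by 0.086 ± 0.41 (adjusted p = 0.937) and *Ier2* by 0.035 ± 0.084 (adjusted p = 0.875), and none of the 3 passed.

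The members that passed were not the same ones in each experiment. In experiment 2, 5 of the 9 tested members passed against EGF, *Dusp1*, *Dusp4*, *Dusp5*, *Ier3* and *Phlda1*, beside 4.15% of all genes that were higher. In experiment 1, 2 of 9 passed, *Egr1* and *Ier3*, beside 4.2% of all genes. Only *Ier3* passed in both.

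*Dusp1* was higher with NRG1 by 1.82 ± 0.33 in experiment 2 (adjusted p = 3.26e-05), against 0.89 ± 0.39 in experiment 1 (adjusted p = 0.189). *Dusp4* was higher by 1.48 ± 0.24 in experiment 2 (adjusted p = 2.18e-06), against 0.86 ± 0.34 in experiment 1 (adjusted p = 0.135). The difference between these responses did not pass for *Dusp1* (0.93 ± 0.53, adjusted p = 0.580) or *Dusp4* (0.61 ± 0.43, adjusted p = 0.691), and for both the NRG1 libraries were above the EGF libraries in each experiment. Without NRG1 replicate 1 of experiment 1, *Dusp1* was at 0.59 (adjusted p = 0.589) and *Dusp4* at 0.38 (adjusted p = 0.728) in that experiment. Without NRG1 replicate 3 of experiment 1, *Dusp4* was at 1.08 and passed there (adjusted p = 0.0643).

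*Dusp5* rose by 1.04 ± 0.25 in experiment 2 (adjusted p = 0.00346), where the mean was 60.7 ± 17.5 with NRG1 and 29.4 ± 4.11 with EGF (SD, n = 3 each). In experiment 1 it differed by 0.45 ± 0.25 and did not pass (adjusted p = 0.341). *Phlda1* rose by 0.53 ± 0.12 in experiment 2 (adjusted p = 0.00169), and in experiment 1 it differed by 0.27 ± 0.12 (adjusted p = 0.168). The call of *Phlda1* in experiment 2 was lost without NRG1 replicate 3 (0.39, adjusted p = 0.111), 1 of 2 libraries that the sample sheet lists in a tube and not in a plate well. The difference between the experiments passed neither for *Dusp5* (0.59 ± 0.36, adjusted p = 0.618) nor for *Phlda1* (0.25 ± 0.17, adjusted p = 0.662).

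For *Egr1* and *Ier3* the difference between the responses passed, and both responded less in experiment 2. That makes 2 of the 9 tested members, beside 0.716% of all genes with a smaller response in experiment 2. *Egr1* differed between NRG1 and EGF by 0.19 ± 0.19 in experiment 2 (adjusted p = 0.699) and rose by 1.10 ± 0.20 in experiment 1 (adjusted p = 3.28e-05), a difference of -0.92 ± 0.28 (adjusted p = 0.0889). *Ier3* rose by 0.85 ± 0.16 in experiment 2 (adjusted p = 1.48e-04) and by 2.01 ± 0.22 in experiment 1 (adjusted p = 1.11e-09), a difference of -1.15 ± 0.28 (adjusted p = 0.0210). The difference of *Ier3* was lost without EGF replicate 1 (-1.09, adjusted p = 0.128) or EGF replicate 3 of experiment 1 (-1.05, adjusted p = 0.123) or EGF replicate 3 of experiment 2 (-0.91, adjusted p = 0.145). That of *Egr1* was lost in 11 of the 18 fits that leave out 1 library, with values of -0.60 or further below zero and adjusted p from 0.102 to 0.439 in those 11. Neither difference passed without NRG1 replicate 1 of experiment 1 (*Egr1* -0.60, adjusted p = 0.439, and *Ier3* -0.82, adjusted p = 0.133) or in a fit with no replicate term (*Egr1* adjusted p = 0.276 and *Ier3* adjusted p = 0.293).

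**Figure D3:**
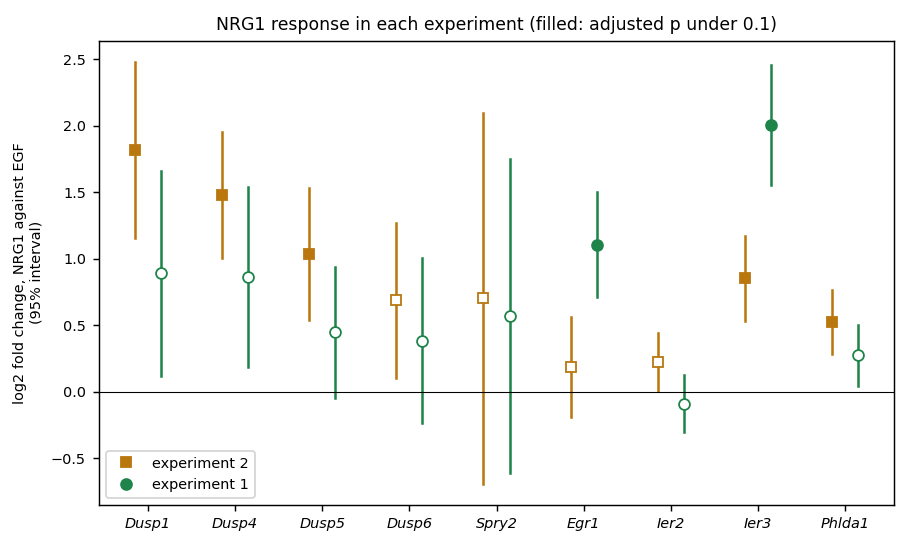
Log2 fold changes of NRG1 against EGF in experiment 2 (squares) and experiment 1 (circles) for the 9 tested members, with 95% intervals. Filled symbols passed at an adjusted p under 0.1. *Ier3* is filled in both, at 0.85 in experiment 2 and 2.01 in experiment 1, and *Egr1* is filled in experiment 1 at 1.10.

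The EGF organoids themselves differed between the experiments for the genes with the uneven response. *Ier3* was at 157 ± 40.3 in EGF libraries of experiment 2, against 23.5 ± 2.95 in experiment 1 (SD, n = 3 each), a rise of 2.73 ± 0.21 (adjusted p = 3.73e-16). *Egr1* was at 90.7 ± 20.6 in experiment 2, against 41.9 ± 8.12 in experiment 1, a rise of 1.10 ± 0.20 (adjusted p = 7.60e-06). *Dusp4*, at 36.0 ± 1.78 against 11.1 ± 0.96, was higher by 1.69 ± 0.32 (adjusted p = 1.11e-05). The 3 were 3 of the 9 tested members, beside 17.1% of all genes higher in EGF organoids of experiment 2. The remaining 6 did not pass, from *Spry2* at -0.29 ± 0.69 (adjusted p = 0.810) to *Dusp1* at 0.62 ± 0.42 (adjusted p = 0.288). The EGF libraries of both experiments enter this contrast and, with opposite signs, the difference of the NRG1 response. The values of *Egr1* and *Ier3* in the 2 contrasts are therefore not independent.

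Over the 18 libraries, after the mean of each experiment was taken away, *Egr1* and *Ier3* had the highest Pearson correlation of log2 CPM (r = 0.88), followed by *Dusp1* and *Dusp4* (r = 0.84). The 21 pairs without *Ier2* and *Spry2* lay between 0.31 and 0.88, and the 7 pairs with *Ier2* between -0.09 and 0.56. These libraries share their ligand groups, so the correlations describe the common pattern over ligands and carry no test. *Dusp1* correlated with *Egr1* at 0.30 within the 9 libraries of experiment 2 and at 0.87 within the 9 of experiment 1. With *Dusp4* it correlated at 0.93 in experiment 2 and at 0.65 in experiment 1. *Dusp1* and *Ier2* were at 0.83 in experiment 2 and at -0.34 in experiment 1.

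By the same measure, the 3 genes most like each of 8 members (*Spry2* and *Spry4* were too low), among all genes with a mean of at least 10, held no other member. *Dusp1* was most like *Nqo1* (r = 0.95), a quinone reductase of the NRF2 response, and *Sfn* (0.91) was also among its nearest genes. *Dusp4* was most like *Emp1* (0.88), *Fam3b* and *Perp*, and *Dusp5* like *Rbp7* (0.83), *Gpx2* and *Kdelr2*. *Egr1* was most like *Junb* (0.90), which encodes an AP-1 subunit, and then *Ddit3* and *Cdkn1a*. *Ier3* was most like *Sars* (0.94), *Mid1ip1* and *Anxa2*, and *Phlda1* like *S100a6* (0.91), *Cldn4* and *Slc7a11*. For *Dusp6* and *Ier2* the nearest genes were *Snrnp70* (0.80) and *Rmnd1* (0.81).

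The wider pathway was read from lists of genes by role, which the plot of tested genes by list shows beside the members. The lists were likewise chosen with earlier results of these data known. Their counts in NRG1 against EGF stand beside 6.04% of all tested genes that were higher and 5.39% that were lower, and counts of 1 in a short list are close to that background. Of 12 other MAP kinase phosphatases tested, 1 rose with NRG1 against EGF, *Dusp8* (0.92 ± 0.25, adjusted p = 0.0128), a phosphatase of JNK and p38. It was at 30.9 to 34.8 in NRG1 libraries of experiment 2 against 9.06 to 15.4 with EGF, and at 15.7 to 18.5 against 9.09 to 17.6 in experiment 1. The list had a median of 0.22. Among 16 other sprouty, SPRED and receptor feedback genes, 1 rose, *Errfi1* (0.81 ± 0.13, adjusted p = 6.40e-06), which encodes a feedback inhibitor of EGFR and ERBB2, and the median of this list was -0.021. *Errfi1* was at 131 to 183 in NRG1 libraries of experiment 2, against 74.7 to 88.5 with EGF, and at 80.1 to 105 against 54.1 to 61.0 in experiment 1, with no overlap in either.

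Of 28 other early genes tested, 9 rose and 0 fell with NRG1 against EGF, beside 6.04% and 5.39% of all tested genes. The list had a median of 0.29, and DESeq2 called 7. *Fos*, an AP-1 subunit, rose by 1.33 ± 0.20 (adjusted p = 1.39e-06), and was at 89.3 to 116 with NRG1 against 27.5 to 54.0 with EGF in experiment 2, and at 18.3 to 42.5 against 7.98 to 17.6 in experiment 1. *Zfp36*, whose product degrades short-lived mRNAs, rose by 0.84 ± 0.14 (adjusted p = 1.30e-05), *Gadd45b* by 0.72 ± 0.16 (adjusted p = 0.00155) and *Klf6* by 0.57 ± 0.12 (adjusted p = 0.00283). Within single experiments the early genes could point opposite ways. *Jun*, named after its values were seen, rose by 0.61 ± 0.15 in experiment 2 (adjusted p = 0.00355) and fell by 0.76 on the log2 scale in experiment 1 (adjusted p = 1.47e-04), and the difference of 1.37 ± 0.21 passed (adjusted p = 5.08e-06). Its libraries were at 181 to 217 with NRG1 against 123 to 132 with EGF in experiment 2, and at 76.0 to 105 against 128 to 168 in experiment 1. *Egr1* and *Ier3* had the opposite sign of this difference.

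**Figure D4:**
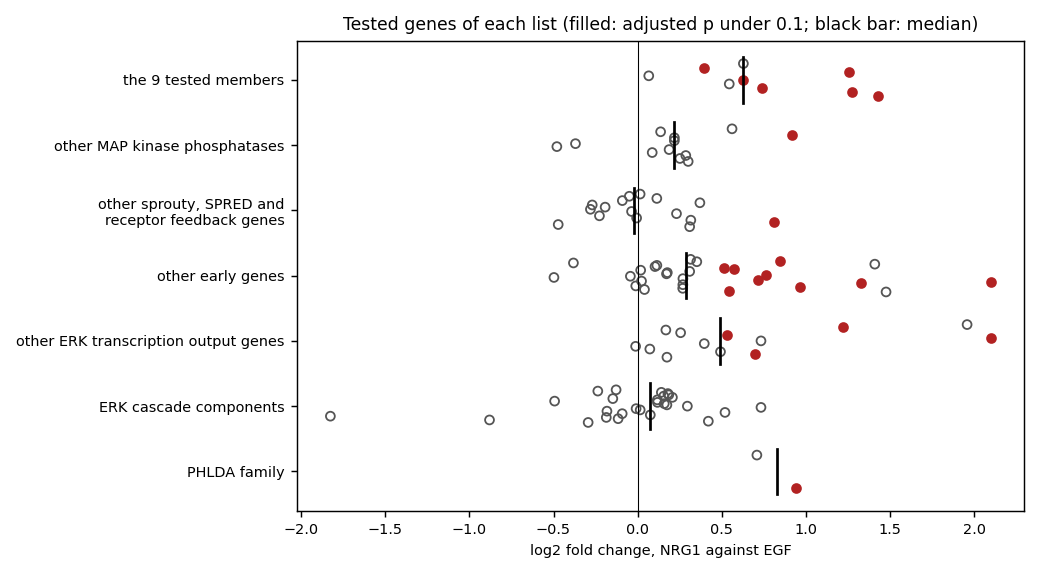
Log2 fold changes of NRG1 against EGF for the tested genes of the members and of 6 further lists. Filled points passed at an adjusted p under 0.1, and black bars are list medians. The members have a median of 0.63 and 6 filled points, other early genes a median of 0.29 and 9 filled points, and ERK cascade components a median of 0.075 and no filled point.

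Of 13 other genes known as outputs of ERK transcription, 4 rose with NRG1 against EGF and 0 fell, beside 6.04% and 5.39% of all tested genes. The list had a median of 0.49. *Plaur*, the urokinase receptor, rose by 1.22 ± 0.19 (adjusted p = 2.01e-06), *Cdkn1a*, a cell cycle inhibitor, by 0.70 ± 0.10 (adjusted p = 7.47e-05), *Fosl1*, an AP-1 subunit, by 2.10 ± 0.65 (adjusted p = 0.0279) and *Hbegf*, which encodes another ligand of EGFR, by 0.53 ± 0.17 (adjusted p = 0.0686). *Fosl1* is on the list of early genes as well and had only 41 UMIs in all. *Hbegf* was at 275 to 327 with NRG1 against 165 to 201 with EGF in experiment 2, whereas in experiment 1 it was at 52.3 to 135 against 64.6 to 76.1 and overlapped.

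The parts of the cascade itself, from receptors and adaptors to RAF, MEK and ERK, gave 0 of 27 that passed in NRG1 against EGF by edgeR, with a median of 0.075. At an unadjusted p under 0.05 there were 4 of the 27, beside 2517 of all 12159 genes. DESeq2 called 0 of the 21 for which it gave an adjusted p. In experiment 1 alone 2 of the 27 were higher with NRG1 than with EGF, beside 4.2% of all genes. In NRG1 against EREG 2 were higher and 1 was lower (4 called by DESeq2), beside 6.55% and 4.75% of all genes. Of the 2 other PHLDA family genes, *Phlda2* rose by 0.94 ± 0.17 (adjusted p = 4.53e-05), at 60.6 to 71.7 with NRG1 against 27.0 to 55.5 with EGF in experiment 2 and at means of 59.9 ± 6.09 against 24.4 ± 5.10 in experiment 1 (SD, n = 3 each).

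In EREG against EGF, none of these 6 lists had a gene that passed in edgeR, beside 1 of all 12159 genes. DESeq2 also called none, but it gave an adjusted p for few of them and so adds little. These few were 0 of 12 other phosphatases, 1 of 16 other feedback genes and 3 of 28 other early genes. They also included 2 of 13 other output genes, 2 of 27 cascade components and 0 of 2 other PHLDA genes. At an unadjusted p under 0.05 in edgeR there were 2 of 12 other phosphatases, 2 of 28 other early genes and 1 of 27 cascade components. Of all 12159 genes, 664 were at that level. The 8 heat shock and dissociation stress genes summed to 1143 to 1232 CPM in NRG1 libraries of experiment 2, against 1154 to 1210 CPM with EGF, and to 1378 to 1624 against 1362 to 1497 CPM in experiment 1. Of 7 tested, 1 rose with NRG1 against EGF (*Hsp90aa1*, 0.29 ± 0.10, adjusted p = 0.0566), beside 6.04% of all tested genes, with a list median of 0.065. The sums overlapped between NRG1 and EGF in both experiments, and their part in the members' results was not tested.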

How the data were processed

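RNA of 18 organoid libraries was analysed, 3 per ligand and experiment. The authors primed RNA with barcoded oligo-dT carrying a UMI, mapped reads to GRCm38 (STAR 2.7.8a) and counted UMIs per gene with BRB-seqTools 1.4. The deposited UMI counts are not normalized, and replicates are kept apart. No annotation release is stated in the sources. Ligand, experiment, replicate and pool came from the deposited sample sheet. Symbols came from GENCODE M21, and 119 of 31053 genes had none. A reporter row (6 counts, 2.05e-05% of the total) entered neither library sizes nor tests.

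The 12159 genes with a total count of 5 or more and an average normalised count of 1 or more were tested with edgeR 4.0.16 in R 4.3.3 (TMM, robust quasi-likelihood). The fit over both experiments held ligand, experiment and replicate number (12 residual degrees of freedom). The fit within experiments held 6 groups and replicate number (10). The SE was taken as the size of the log2 fold change over the root of F. Alternatives were DESeq2 1.42.0, RLE scaling, no filter, other blocks, only the ligands compared, each experiment alone, summed counts, single pools, an adjusted p under 0.05 and leaving out each library. Leaving out the 2 libraries listed in tubes was chosen after seeing the data. Replicate pairs differed by more than sampling noise (chi-square per degree of freedom 1.52 to 4.14 over 18 pairs). The code was tested on simulated counts.

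The members and lists were chosen with earlier results of these data known. Named were all 10 members, up to 4 genes per pathway list that passed with the lowest adjusted p in NRG1 against EGF, and the 3 genes most like each member among those with a mean of at least 10. For *Dusp6* and *Ier2* only the nearest of the 3 is given, 1 gene near *Dusp1* is not reported here, and cell type and proliferation lists are given by counts. Likeness used log2 CPM with a prior count of 2. Promoters are from RefSeq. Protein sequences were planned and are not used here.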

Additional observations from a re-analysis of the deposited data

Results flagged for a closer look

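*Dusp6* in NRG1 replicate 1 of experiment 2 was at 58.7 normalised counts, far above the other 5 NRG1 libraries, which lay between 19.6 and 29.7. Its gap to the nearest library was 0.743 of the range of the 6, above the critical ratio of 0.625. This was the 1 library marked in 27 sets of libraries checked, and chance marks about 1 in 20 where the libraries of a set share a level. Each set pooled both experiments, whose levels differ for some genes, so this rate need not apply.

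The NRG1 response of 2 members differed between experiments by a test of the difference. For *Egr1*, the response in experiment 2 minus that in experiment 1 was -0.92 on the log2 scale (edgeR's quasi-likelihood test, adjusted p = 0.0889), and for *Ier3* it was -1.15 (adjusted p = 0.0210). NRG1 was above EGF in 3 of 3 libraries of each experiment for *Ier3*, and in experiment 1 for *Egr1*.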

How the results depend on the processing

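No member that passed changed direction under any alternative run. Of all genes, 1390 passed in NRG1 against EGF, against 594 and 273 in the single pools (replicates 1 and 3, and replicate 2) and 738 with counts summed per experiment and ligand. In NRG1 against EREG 1374 passed, against 536, 330 and 734 in the same 3 settings. With only replicate 2, members fell to 1 of 9 (NRG1 against EGF) and 2 of 9 (NRG1 against EREG). Only 1 gene passed in EREG against EGF, but 11 with DESeq2, 26 with no filter, 16 with a nested replicate block, 25 with only these ligands fitted, 0 in either pool and 0 with summed counts. No gene passed in EREG against EGF in experiment 1, but 1 with no filter, 2 with the experiment fitted alone and 1 without the tube libraries. In experiment 2, 122 passed, against 27 with no replicate block, 335 fitted alone, 567 without the tube libraries and 56 at an adjusted p under 0.05. For the difference in NRG1 response, 175 genes passed, against 90 with no replicate block and 115 at 0.05, and the members that passed were 2, against 1 with DESeq2, 0 with no replicate block and 1 at 0.05. For the difference in EREG response, 9 passed, against 14 with DESeq2, 49 with no filter, 0 with no replicate block and 278 without the tube libraries. The causes were not tested.

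Leaving out 1 library at a time gave 1077 to 1548 genes in NRG1 against EGF (6 to 7 members), 1094 to 1530 in NRG1 against EREG (5 to 6 members) and 0 to 43 in EREG against EGF. NRG1 against EGF gave 514 to 982 in experiment 2 (4 to 5 members) and 548 to 1095 in experiment 1 (2 to 3 members), and EREG against EGF 2 to 526 in experiment 2 and 0 to 1 in experiment 1. The differences gave 96 to 241 genes for NRG1 (0 to 2 members) and 0 to 248 for EREG. Members that passed in EREG against EGF stayed at 0 in each of these fits.

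Some member values near zero that did not pass changed sign, also without passing. In the pool of replicate 2 these were *Ier2* in NRG1 against EGF (-0.077) and NRG1 against EREG (-0.13), *Spry2* in NRG1 against EREG (-0.038) and *Dusp5* in EREG against EGF (-0.19), and in the other pool *Dusp6* in EREG against EGF (-0.041). Without the tube libraries *Dusp4* came to -0.022 in EREG against EGF, -0.088 in experiment 2 and -0.16 in the difference of the EREG response. *Dusp5* in EREG against EGF of experiment 1 was -0.0063 with DESeq2, -0.0033 with RLE scaling, -0.0051 fitted alone and -0.0024 without the tube libraries. The difference of the EREG response of *Phlda1* was 5.6e-04 with no replicate block and 0.0034 without the tube libraries. Leaving out 1 library gave ranges across zero in EREG against EGF for *Dusp6* (-0.070 to 0.22) and *Ier2* (-0.015 to 0.079), and in NRG1 against EREG for *Spry2* (-0.020 to 0.24) and *Ier2* (-0.013 to 0.086). In EREG against EGF of experiment 2 these were *Dusp4* (-0.012 to 0.60) and *Ier3* (-0.19 to 0.16), and of experiment 1 *Dusp1* (-0.35 to 0.093), *Dusp4* (-0.068 to 0.35), *Dusp5* (-0.15 to 0.16), *Spry2* (-0.24 to 0.55) and *Ier2* (-0.14 to 0.051). The difference of the NRG1 response crossed zero for *Spry2* (-0.28 to 0.51), that of the EREG response for *Dusp4* (-0.14 to 0.51) and *Phlda1* (-0.087 to 0.074), and EGF organoids of experiment 2 against experiment 1 for *Dusp5* (-0.078 to 0.22) and *Spry2* (-0.66 to 0.12).

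To look for pairing, the mean of each ligand and experiment group was taken away from log2 CPM. The remaining deviations were correlated between libraries of different groups, so these values do not measure how alike the libraries are as a whole. In these deviations, same-numbered libraries of an experiment correlated at r from 0.0196 to 0.175 (median 0.127, 18 pairs). Same-numbered libraries of different experiments were at -0.069 to 0.176 (median 0.036), and libraries with other numbers at a median of -0.062. The same-numbered pairs of an experiment were all above zero but not all over 0.1, so the numbers alone do not settle pairing. The fits keep the replicate term of the study's design, shared by both experiments. The differences in NRG1 response of *Egr1* and *Ier3* did not pass without it. With no replicate block 1229 genes and 6 members passed in NRG1 against EGF. Depth limits *Spry2* and *Spry4* most.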

Other observations

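The other cell type lists moved unevenly with NRG1 against EGF (edgeR, adjusted p under 0.1), where 6.04% of all tested genes were higher and 5.39% lower. Enterocyte markers were higher for 3 of 7 and lower for 0, goblet cell markers lower for 3 of 6 and higher for 0, and enteroendocrine markers higher for 1 and lower for 1 of 6. None of 4 tuft cell markers passed and 0 had an unadjusted p under 0.05 in edgeR. DESeq2 gave an adjusted p for 0 of these 4, so it could call none. Of 8 proliferation genes, 2 were higher. Epithelial markers were higher for 3 and lower for 1 of 8. The list medians were -0.57 for stem cell and -0.54 for Paneth cell markers, 0.17 for enterocyte markers, 0.16 for proliferation genes and 0.26 for epithelial markers, against -0.013 over all genes. Few markers of other tissues could be tested, with medians of 1.17 for 2 immune and -0.51 for 3 fibroblast markers.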
